A study of Caenorhabditis elegans with 2 samples.

Results

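The regions described here are candidate binding regions of tagged CCCH-3 at autosomal protein-coding genes transcribed away from each other in Caenorhabditis elegans. Each belongs to the deposited list of 30000 candidates from pooled reads, which by its name holds peaks and background, and was chosen by position alone: its summit had to fall in the start windows of at least 1 plus-strand and at least 1 minus-strand protein-coding gene. A start window reaches 1000 bp upstream and 200 bp downstream. It also had to lie on chromosomes I to V and more than 500 bp from any tRNA, snoRNA or snRNA gene. Of the 30000 candidates, 690 met this rule and are called divergent regions; 4977 further autosomal candidates with starts of protein-coding genes on a single strand, equally far from small RNA genes, are called unidirectional regions. Coordinates are on assembly ce11.

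The data came from chromatin immunoprecipitation and sequencing of strain OP628, which carries the transgene wgIs628, a ccch-3 copy with a carboxy-terminal TY1 EGFP 3xFLAG tag, together with unc-119(+) in an unc-119 (tm4063) background. Worms were whole young adults of mixed sex, 70 hours old, grown from larvae starved after bleaching, and the antibody recognised green fluorescent protein. The labels give 2 biological replicates of this single group, and untagged animals are not analysed here. The tagged copy is additional to the native gene, and whole animals mix all tissues, so the cells that a region comes from cannot be told apart.

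CCCH-3 belongs to the CCCH zinc finger family, whose members are known mostly for binding RNA. Neighbouring genes transcribed in opposite directions can share the stretch between their starts as a joint promoter, an arrangement that is common in the compact worm genome. Many worm transcripts receive a spliced leader in place of their original 5′ end, so an annotated start may lie downstream of the place where transcription begins.

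Of the 690 divergent regions, 42 (6.09%, 95% Wilson interval 4.53 to 8.13%) were among the peaks that the authors retained by the irreproducible discovery rate, called the reproducible peaks. Of all 30000 candidates 0.727% were, and of the 23018 autosomal candidates 0.699%. Of the unidirectional regions 52 of 4977 were (1.04%, 0.798 to 1.37%), and of the 16846 autosomal regions with no protein-coding start in the window 19 were (0.113%, 0.0722 to 0.176%). The interval of the divergent regions lay above all of these, but not above that of the other autosomal candidates near a small RNA gene, of which 46 of 489 were reproducible (9.41%, 7.13 to 12.3%). Of 16 regions that met the rule except for lying near such a gene, 2 were reproducible (12.5%, 3.50 to 36.0%). The reproducible peaks are the pooled regions with the highest signal values, down to 94.38, so belonging to them follows the pooled rank. In the authors' pooled list, the 648 divergent regions outside the reproducible list had a median −log10 q-value of 0.0601. The 42 inside it had 1.86, so most of the 690 are not told apart from background. The intervals cover counting error only, regions of a genome are not replicates, and with a single group no test of these differences was made. On the X chromosome, 2 of 63 regions with starts on both strands were reproducible (3.17%, 0.875 to 10.9%), an interval that overlaps the autosomal one; 1 of these 2 lay within 500 bp of a small RNA gene.

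**Figure D1:**
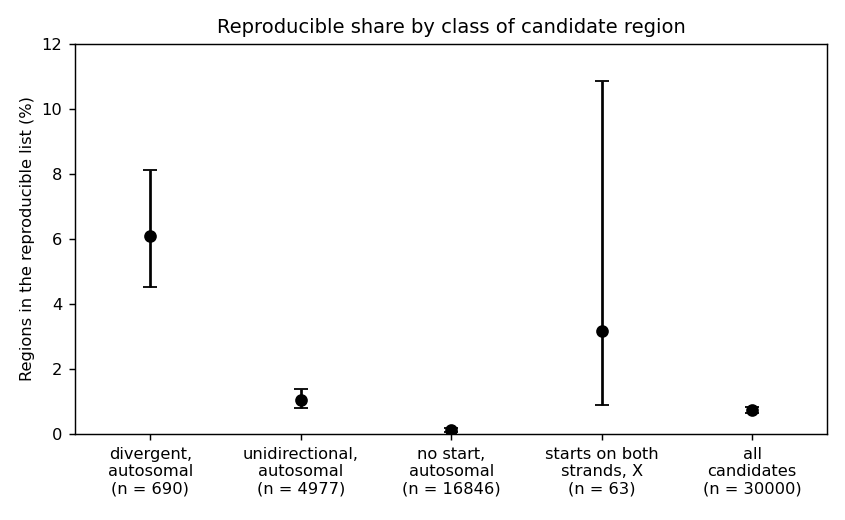
Share of candidate regions in the reproducible list (vertical axis, %), with the number of regions under each class. Shown are autosomal divergent, unidirectional and no-start regions, X regions with starts on both strands, and all candidates. Bars are 95% Wilson intervals. Autosomal regions near a small RNA gene, with higher shares (9.41%, and 12.5% for those with starts on both strands), are not shown. The divergent regions stand at 6.09%, above the unidirectional regions at 1.04% and all candidates at 0.727%.

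The sequence at 9 reproducible summits is shown first because these stretches carry the features described further on. Each is the summit with the 50 bases on either side, read from the RefSeq genome of WBcel235 on the plus strand, and overlaps no annotated exon; capitals mark any of 5 6-mers on either strand, namely GGCCGA, then ACACGC, then CGGCCA, then GTACAC and then GGCCTA. The first 5 hold such letters between genes of different kinds, the next pair are AT-rich summits without them, and the last 2 lie between chaperone genes.
rps-23/dpm-3, chrIV:12391289-12391389: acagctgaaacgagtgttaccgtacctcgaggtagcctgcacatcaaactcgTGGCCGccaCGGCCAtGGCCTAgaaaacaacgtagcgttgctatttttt
F01D4.5/ced-5, chrIV:10483837-10483937: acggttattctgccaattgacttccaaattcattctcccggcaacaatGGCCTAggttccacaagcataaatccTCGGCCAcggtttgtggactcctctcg
gna-1/B0024.13, chrV:10320306-10320406: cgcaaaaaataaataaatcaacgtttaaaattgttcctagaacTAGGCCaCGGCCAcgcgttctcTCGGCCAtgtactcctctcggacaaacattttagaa
atp-5/lmtr-3, chrV:11124074-11124174: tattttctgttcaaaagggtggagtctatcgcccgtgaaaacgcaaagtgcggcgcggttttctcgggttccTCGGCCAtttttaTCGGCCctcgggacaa
tpp-2/rbbp-5, chrII:6097629-6097729: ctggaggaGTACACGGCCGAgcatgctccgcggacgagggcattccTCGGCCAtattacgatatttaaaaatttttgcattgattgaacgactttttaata
F56B3.11/ech-5, chrIV:796784-796884: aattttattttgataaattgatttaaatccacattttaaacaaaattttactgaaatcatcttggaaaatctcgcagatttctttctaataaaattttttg
snx-13/snr-1, chrIV:17087507-17087607: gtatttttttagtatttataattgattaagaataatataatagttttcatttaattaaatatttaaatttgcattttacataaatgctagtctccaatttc
Y22D7AL.10/hsp-60, chrIII:1619023-1619123: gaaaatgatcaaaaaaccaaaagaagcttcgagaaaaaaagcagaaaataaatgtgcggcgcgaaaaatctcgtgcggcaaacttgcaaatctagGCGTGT
F44E5.4/F44E5.5, chrII:11759434-11759534: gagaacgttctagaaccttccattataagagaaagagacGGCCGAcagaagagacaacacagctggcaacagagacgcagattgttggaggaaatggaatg

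The divergent regions made up a steady part of the autosomal regions down to the authors' threshold and a falling part below it. They were 9 of 34 autosomal regions at pooled ranks 1 to 50 (26.5%), 12 of 48 in the rest of the upper 50% of the reproducible list (25%) and 21 of 79 in its lower 50% (26.6%). From the threshold to rank 500 they were 21 of 210 (10%), from there to rank 1000 16 of 367 (4.36%), and beyond rank 5000 508 of 19210 (2.64%). The share of unidirectional regions moved less over the same ranks, from 32.4% at ranks 1 to 50 to 30% from the threshold to rank 500 and 21.3% beyond rank 5000. The ranks are those of the authors' signal value, a score of each region against a control whose scale is not stated.

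The threshold itself fell among close values. The 5 divergent regions just inside it were tpp-2/rbbp-5 (signal value 94.99), Y77E11A.7/jtr-1 (94.73), cct-8/Y55F3AR.2 (94.71), Y92H12BR.2/Y92H12BR.3 (94.64) and mtx-1/dnj-12 (94.38). The 5 just outside were a second region between ecps-1 and atx-2 (94.34), C01G10.10/C01G10.9 (93.67), ska-1/Y106G6H.16 (92.77), W03C9.5/mex-1 (91.39) and rps-15/F36A2.9 (89.78).

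The 42 reproducible regions belonged to 42 different gene pairs, where a pair is the nearest start on each strand. The 690 divergent regions lay at 623 pairs, of which 62 had more than 1 region. Counted from the genome, 2290 neighbouring autosomal pairs face away from each other with starts 1 to 2000 bp apart. Of these 563 (24.6%) had a divergent region and 41 (1.79%, 1.32 to 2.42%) a reproducible one. The share was alike for starts 1 to 250 bp apart (9 of 354, 2.54%), over 250 and up to 500 bp apart (12 of 504, 2.38%) and over 500 and up to 1000 bp apart (17 of 761, 2.23%). It was lower beyond 1000 bp (3 of 671, 0.447%, 0.152 to 1.31%). At that spacing the rule leaves out summits more than 1000 bp upstream of either start, which can lie close to the other start. The lower share there may therefore be set in part by the rule. The share of pairs with any divergent region was 18.9% for the closest starts and 23.6% over 250 and up to 500 bp. It was 31.5% over 500 and up to 1000 bp and 20.4% for the farthest.

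**Figure D2:**
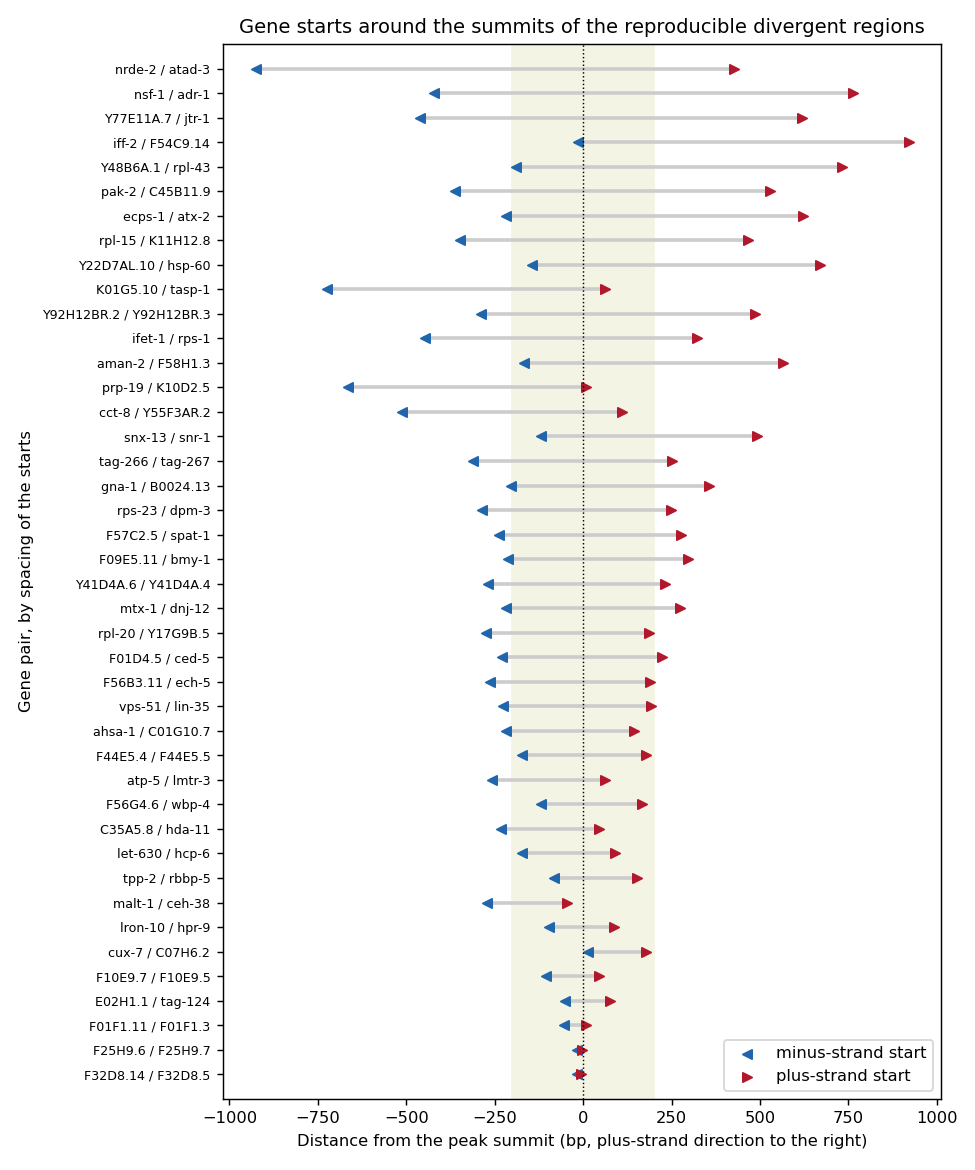
Positions of the nearest minus-strand start (blue) and plus-strand start (red) around each of the 42 reproducible summits (dotted line at 0), in bp, ordered by the spacing of the starts; the shaded band is the usual region width of 400 bp. In 38 of the 42 rows the summit lies between the starts.

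Reproducible summits lay mostly between the starts. The summit was upstream of both starts in 38 of 42 reproducible regions (90.5%, 77.9 to 96.2%) and in 470 of the 648 others (72.5%, 69.0 to 75.8%). With starts over 1000 bp apart the rule allows no other place, so 3 of 3 and 182 of 182 lay there. With starts over 500 and up to 1000 bp apart, 18 of 18 reproducible and 203 of 276 other summits (73.6%) did. For over 250 and up to 500 bp the counts were 12 of 12 and 63 of 121 (52.1%). At 1 to 250 bp they were 5 of 9 and 22 of 67 (32.8%). The starts of the reproducible pairs were 12 to 1353 bp apart with a median of 503 bp (95% order-statistic interval 362 to 621), against a median of 741.5 bp (686 to 770) in the others. The distance to the nearer start was alike, with medians of 170 bp (90 to 213) and 162 bp (143 to 179). The distance to the farther start was 276 bp (232 to 466) against 591.5 bp (553 to 633). The direction had no marked side: 22 reproducible summits lay nearer to the plus-strand start and 20 nearer to the minus-strand start.

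The distance of the summit from the middle of the gap also differed. The median distance from the midpoint was 52 bp (30.5 to 96) in the reproducible regions and 184.5 bp (165 to 200.5) in the others. Since the gaps were shorter too, the values were set side by side at like spacing. With starts 1 to 250 bp apart, 8 of 9 reproducible summits lay within 100 bp of the midpoint, against 23 of 67 others (34.3%). With starts over 250 and up to 500 bp apart, 12 of 12 did, against 33 of 121 (27.3%). With starts over 500 and up to 1000 bp apart, 9 of 18 did (50%) against 68 of 276 (24.6%). Beyond 1000 bp the 3 reproducible summits were no closer to the middle, with 1 of 3 against 50 of 182 (27.5%) and median distances of 170.5 and 163.25 bp. At that spacing the rule itself limits how far any summit can lie from the middle. Among summits between the starts, the share in the middle 50% of the gap was 71.1% (27 of 38, 55.2 to 83.0%) and 62.8% (295 of 470, 58.3 to 67.0%), and these intervals overlap. The regions are 400 bp wide, except that of F56G4.6/wbp-4 with 143 bp, and 10 of the 42 cover both starts. Fragments were 200 to 800 bp long, so distances shorter than a fragment are not resolved.

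In the annotation, 36 reproducible summits were intergenic, 4 fell in a 5′ UTR and 2 in another exon. The 4 in a 5′ UTR were those of F25H9.6/F25H9.7, cux-7/C07H6.2, malt-1/ceh-38 and F32D8.14/F32D8.5, the only reproducible summits not upstream of both starts. Of the divergent regions with a summit in a coding exon 0 of 102 were reproducible, and in an intron 0 of 42. A count of 0 allows a share of up to 3.63% and 8.38% by the Wilson upper bounds.

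The share of reproducible regions was compared at like distance from a start, because divergent summits lie nearer to starts than unidirectional ones. With the nearer start within 100 bp, 15 of 227 divergent regions (6.61%, 4.05 to 10.6%) and 5 of 866 unidirectional regions (0.577%, 0.247 to 1.34%) were reproducible. From there to 200 bp the shares were 6.08% (3.43 to 10.6%) and 1.18% (0.640 to 2.15%). From 200 to 300 bp they were 10.3% (5.70 to 17.9%) and 3.67% (2.23 to 5.96%), and from 300 to 500 bp 5.22% (2.41 to 10.9%) and 1.44% (0.826 to 2.50%). The intervals were apart in the nearest bins and overlapped slightly in the next pair. Beyond 500 bp 0 of 70 divergent and 10 of 2019 unidirectional regions (0.495%) were reproducible. Within the divergent regions the share fell with the spacing of the starts, from 11.8% at 1 to 250 bp (9 of 76) to 1.62% beyond 1000 bp (3 of 185, 0.553 to 4.66%). In this last bin the rule left out summits more than 1000 bp upstream of either start, so it is not like the shorter bins.

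**Figure D3:**
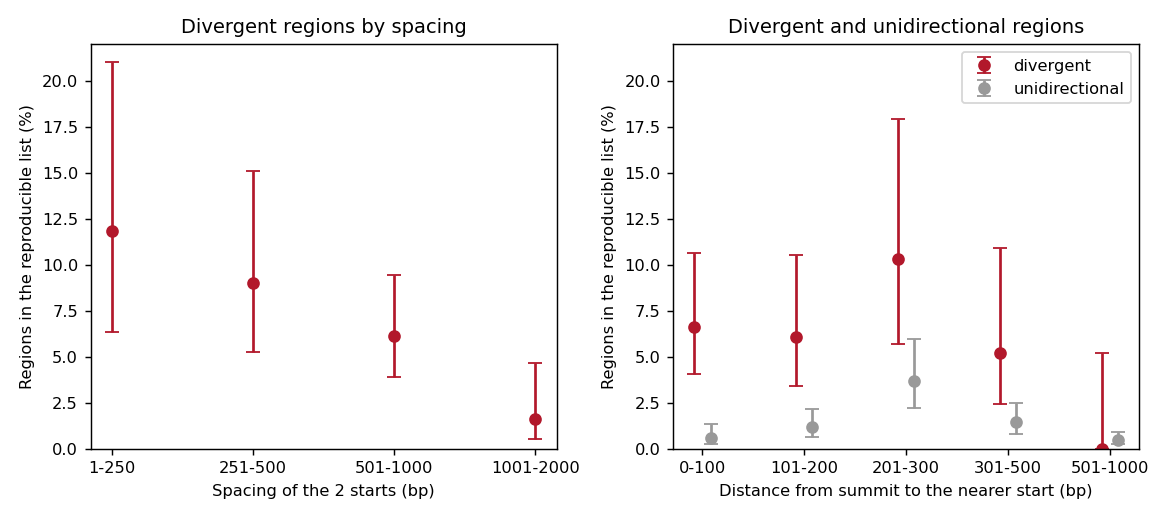
Share of regions in the reproducible list (%) with 95% Wilson intervals. Left, divergent regions by the spacing of their starts in bp. The intervals overlap up to 1000 bp, and the share runs from 11.8% at 1 to 250 bp to 1.62% beyond 1000 bp. In that last bin the rule leaves out summits more than 1000 bp upstream of either start. Right, divergent (red) and unidirectional (grey) regions by the distance from the summit to the nearer start. Within 100 bp the divergent share is 6.61% against 0.577%.

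The pairs with the highest signal values ranked high in each replicate. The region between F56G4.6 and wbp-4, ranked 2 of the pooled list, had a signal value of 121.9 in replicate 1 (rank 15) and 169.7 in replicate 2 (rank 2). The region at F25H9.6, a flavoprotein domain gene, and F25H9.7, named in RefSeq for assembly of succinate dehydrogenase, had 121.5 (rank 17) and 131.2 (rank 4). The region at cux-7, an RNA recognition motif gene, and C07H6.2 had 121.5 (rank 18) and 104.3 (rank 23), and the start window of lig-4, the DNA ligase IV gene, also holds this summit. The region between prp-19, a splicing factor gene, and K10D2.5 with emb-1, a subunit gene of the anaphase-promoting complex, had 78.3 (rank 47) and 131.0 (rank 5). The region between the PHD-type domain gene F01D4.5 and ced-5, which acts in the engulfment of dying cells, had 107.5 (rank 24) and 82.6 (rank 64). Signal values are on each list's own scale, so they rank regions within a list and do not compare the replicates.

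Genes of cytosolic ribosomal proteins were the list with the most members at reproducible divergent regions. Of 1274 genes with a divergent region in their window, 89 (6.99%) had a reproducible one, and of the 21 ribosomal protein genes among them 5 did (23.8%). Each lay with its start 276 to 732 bp from the summit. The region between rps-23 and dpm-3, a subunit gene of dolichol-phosphate mannose synthase, had 82.4 (rank 40) in replicate 1 and 117.2 (rank 10) in replicate 2. The region between rpl-43 and Y48B6A.1, a homologue of the ribosome biogenesis factor BOP1, had 50.9 (rank 214) and 108.4 (rank 18). That between rpl-15 and K11H12.8 had 65.97 (rank 86) and 77.8 (rank 72). That between rpl-20 and Y17G9B.5 had 64.5 (rank 94) and 66.99 (rank 124). The region between rps-1 and the translational repressor gene ifet-1 had 36.6 (rank 1168) in replicate 1 and 60.5 (rank 162) in replicate 2. In 3 of the 5 the summit was nearer to the partner gene than to the ribosomal gene; in the other cases, at rpl-15 and rps-1, it was nearer to the ribosomal gene.

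Chaperone genes were next, with 3 of 13 (23.1%), which were hsp-60, the chaperonin subunit gene cct-8 and the DnaJ family gene dnj-12. The partner of hsp-60, the gene of the mitochondrial chaperonin, was Y22D7AL.10, which RefSeq names as its small co-chaperonin partner, the 10 kDa heat shock protein. Their summit lay 144 bp upstream of Y22D7AL.10 and 669 bp upstream of hsp-60, and ranked 212 in replicate 1 and 214 in replicate 2. The region between cct-8 and Y55F3AR.2 ranked 124 and 230. The region between dnj-12 and mtx-1, a metaxin gene of the mitochondrial outer membrane, ranked 134 and 944.

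Further chaperone genes fell outside the name patterns and are named after their values were seen. The region between ahsa-1, a homologue of an activator of Hsp90, and C01G10.7 ranked 291 and 232. F44E5.4 and F44E5.5, both Hsp70 genes, face away from each other with starts 351 bp apart, and the summit lay 173 and 178 bp upstream of them. The genes share 97.7% of their 31-base words, and 46.2% of the 15-base words of the left part of the region recur inverted in the right part. Reads cannot be told apart between such copies, so the position and the value of this region (rank 766 in replicate 1 and 54 in replicate 2) are uncertain. Without it the divergent share was 5.95%.

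Genes of splicing, chromatin and the cell cycle gave smaller counts. Splicing genes had 2 of 5, prp-19 and snr-1, which encodes an Sm protein of the spliceosome; the region of snr-1 and the sorting nexin gene snx-13 ranked 122 and 50. Chromatin genes had 2 of 11. They were hda-11, a histone deacetylase gene opposite the exportin gene C35A5.8 (signal values 50.8 and 76.8), and lin-35, the Retinoblastoma homologue, opposite vps-51, a gene of a vesicle tethering complex (ranks 39 and 117). The DREAM complex list had 5 genes at divergent regions, and lin-35 was the only one at a reproducible region. Cell cycle and replication genes had 0 of 12. The list does not hold emb-1 (above), hcp-6 of condensin (ranks 2103 and 113) or the checkpoint gene hpr-9 (ranks 209 and 224), which lay at reproducible regions. They were picked from the reproducible regions after their values were seen, and such genes at the other divergent regions were not counted.

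Single genes of other lists were lig-4 of 5 DNA repair genes, iff-2, a translation factor eIF5A gene, of 8, atp-5 of the ATP synthase, of 7 respiratory chain genes, and vps-51 of 15 vesicle traffic genes. No reproducible divergent region lay at the 54 chemoreceptor, 10 nuclear hormone receptor, 8 proteasome, 7 collagen, 6 mitochondrial ribosomal protein or 5 aminoacyl-tRNA synthetase genes with a divergent region. The same held for the core histone (4), nuclear pore (4), ubiquitin ligation (3), major sperm protein (3), RNA polymerase (2), mitochondrial import (1) and CCCH zinc finger (1) genes. Most of these lists are too small for a count of 0 to be read against 6.99%, and 73 of the 89 genes belonged to no list. Some products outside the name patterns, picked after their values were seen, belong to the same kinds of protein by their RefSeq names. They were let-630, a mitochondrial ribosomal protein, F56B3.11, a subunit of the mitochondrial import machinery, and tag-267, a major sperm protein domain gene.

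Further pairs were among the 25 highest. The region between ecps-1, a homologue of the proteasome component Ecm29, and the ataxin-2 gene atx-2 ranked 58 and 19. The region between F09E5.11 and bmy-1 had signal values of 61.9 and 86.8. Those between the kinase gene pak-2 and C45B11.9 (ranks 120 and 57) and between K01G5.10 and the taspase homologue tasp-1 (107 and 77) stayed within the first 120 ranks of each replicate. The regions at F10E9.7/F10E9.5 (325 and 14), F56B3.11/ech-5 (418 and 20) and F57C2.5/spat-1, the homologue of aurora borealis (826 and 32), ranked far higher in replicate 2. The region at Y41D4A.6/Y41D4A.4 ranked higher in replicate 1 (45 and 180). The remaining pairs of the 25 were F01F1.11/F01F1.3 (104 and 176), tag-266/tag-267 (74 and 87), C35A5.8/hda-11, F44E5.4/F44E5.5, nrde-2/atad-3 (625 and 114) and iff-2/F54C9.14 (60 and 898). Of these, nrde-2 acts in nuclear RNA interference. Below the 25 highest, the region between nsf-1, a vesicle fusion ATPase gene, and the RNA editing gene adr-1 had signal values of 56.1 and 61.3.

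The replicates differed in how strongly they gave these regions. As many top regions were taken from each replicate list as the reproducible list holds. Of the 42 regions, 26 coincided with such a top region in replicate 1, 33 in replicate 2, 20 in both and 3 in neither. The median rank was 175.5 in replicate 1 (range 15 to 13928) and 100 in replicate 2 (range 2 to 944). The 52 reproducible unidirectional regions differed the same way, with medians of 142 (range 11 to 8061) and 109.5 (range 1 to 1049). A better median rank in replicate 2 was thus not particular to divergent regions. In replicate 1, 5 of the 42 ranked beyond 1000, namely gna-1/B0024.13 (13928), atp-5/lmtr-3 (6302), F32D8.14/F32D8.5 (2189), let-630/hcp-6 (2103) and ifet-1/rps-1 (1168), and in replicate 2 none did. The q-value given by the caller was at or under 0.05 for 31 of the 42 in replicate 2 and for 0 in replicate 1, whose lowest was 0.125. Regions as far apart as ranks 15 and 159 of replicate 1 shared that lowest value. The same shares over all candidates of each replicate were not counted, so the count of 0 may hold for the whole replicate 1 list. Of the 648 other divergent regions, 3 coincided with a top region of replicate 1, 14 with a top region of replicate 2 and 1, between sec-61.G and F32D8.7, with both. That region ranked only 18182 in the pooled list. Overlap of 1 bp was enough to coincide, so a region need not share the summit of the top region. The replicate lists fed the reproducible list, so these counts are not independent of it.

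**Figure D4:**
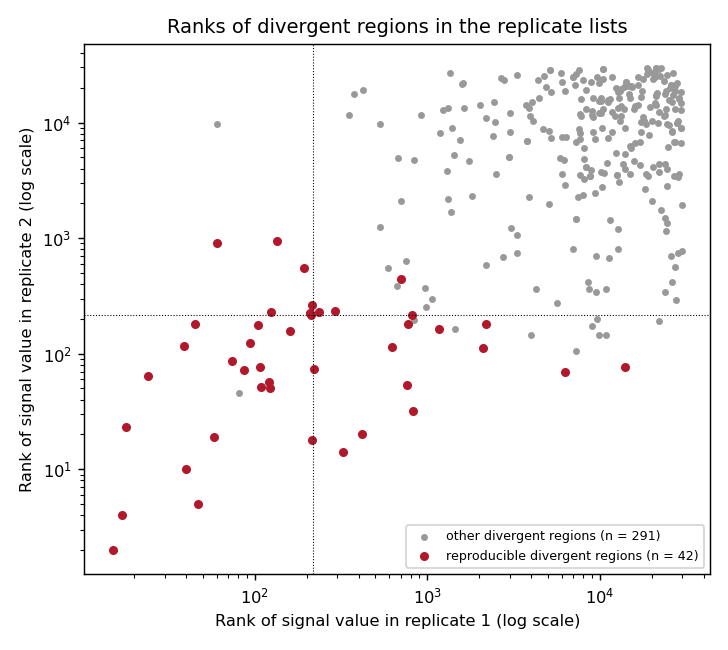
Rank of the signal value in replicate 1 and replicate 2 (log scales) for divergent regions with an overlapping region in both lists; dotted lines mark the length of the reproducible list. The 42 reproducible regions (red) reach rank 13928 in replicate 1 and rank 944 in replicate 2, and 20 lie inside both lines.

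A second region beside the reproducible one was listed at 4 pairs. Between ecps-1 and atx-2 the stronger summit lay 217 bp upstream of ecps-1 (rank 21) and the weaker, 45 bp upstream of atx-2, took the first place below the threshold. Between aman-2 and F58H1.3, iff-2 and F54C9.14, and ifet-1 and rps-1 the second regions ranked 7575, 11748 and 20471. Each of these overlapped the reproducible region of its pair. The stronger summit was thus not always the one nearer to the middle: at aman-2 it lay 167 bp from aman-2, and the weaker lay 368 and 364 bp from the 2 starts.

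Summits of the reproducible divergent regions were richer in G and C. Mean GC content of the bases within 50 bp of the summit was 41.9% (SD 11.1 over 42 summits), against 35.6% (SD 9.17) in the 648 other divergent regions and 43.1% (SD 8.13) in the 52 reproducible unidirectional regions. The share of divergent regions that were reproducible was 3.63% under 30% GC (7 of 193), 0.676% from 30 to 35% (1 of 148), 3.60% from 35 to 40% (5 of 139), 13.8% from 40 to 45% (13 of 94) and 13.8% at 45% and over (16 of 116, 8.67 to 21.2%). At each level of GC it was above the unidirectional share, which was 0.290% under 30% GC and 4.05% (2.74 to 5.96%) at 45% and over. Between 30 and 40% GC the intervals overlapped, and at the other levels they were apart.

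A small group of reproducible summits was rich in A and T. It comprised 7 regions with 15.8 to 28.7% GC, at F56B3.11/ech-5, snx-13/snr-1, F57C2.5/spat-1, tag-266/tag-267, E02H1.1/tag-124, Y92H12BR.2/Y92H12BR.3 and mtx-1/dnj-12. Their summits all lay between the starts, and none held any of the 5 6-mers described next. Most of these 6-mers are rich in G and C, so a group cut at low GC is less likely to hold them. Their median signal value was 52.6 in replicate 1 and 73.5 in replicate 2, against 61.9 and 75.8 for the 29 regions with at least 40% GC. The AT-rich median was the lower of these in each list, and the ranges of the groups overlapped. The 6 regions with 30 to 40% GC had medians of 53.6 and 58.6, so in replicate 2 the AT-rich group was not the lowest. The bases at F56B3.11/ech-5 and snx-13/snr-1 printed above show such summits, as long runs of A and T.

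**Figure D5:**
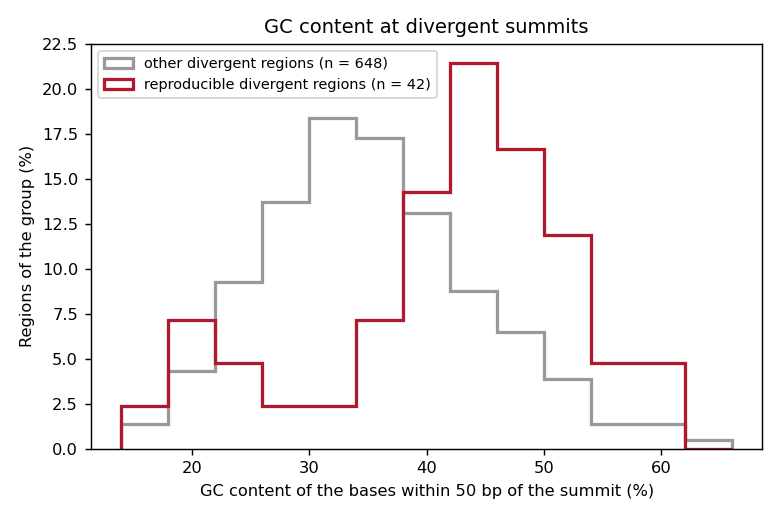
GC content (%) of the bases within 50 bp of the summit, as a share of regions in each group (%), for 42 reproducible and 648 other divergent regions. Most reproducible regions lie above 40% (mean 41.9%), the others peak lower (mean 35.6%), and 7 reproducible regions lie below 30%, a cut that no gap in the values marks.

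The 5 6-mers were found earlier on these same peaks, so their counts here describe the regions and are no independent evidence. At least 1 of them, on either strand and within 50 bp of the summit, was present in 24 of 42 (57.1%), in 87 of 648 other divergent regions (13.4%), in 26 of 52 reproducible unidirectional regions (50%) and in 7.93% of all candidates. CGGCCA was in 13 of 42 (31.0%, 19.1 to 46.0%) against 7 of 52 unidirectional (13.5%, 6.68 to 25.3%), intervals that overlap. GTACAC was in 7 of 42 (16.7%) against 13 of 52 (25%). The letters TCGGCCA, chosen after the sequences were seen, hold CGGCCA and the reverse complement of GGCCGA in overlap. They occurred in 8 of the 42 regions (19.0%, 9.98 to 33.3%), 12 of 648 other divergent regions (1.85%), 4 of 52 reproducible unidirectional regions (7.69%, 3.03 to 18.2%) and 0.757% of all candidates. Among the printed sequences they stand at F01D4.5/ced-5, gna-1/B0024.13, atp-5/lmtr-3 and tpp-2/rbbp-5.

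Letters of general promoter elements occurred at shares near those of all candidates. On either strand, TATAAA was in 3 of 42 (7.14%) against 13.5% of all candidates, CCAAT in 5 (11.9%) against 20.3%, GGGCGG in 1 (2.38%) against 1.36%, TTCCCGC in 1 (2.38%) against 0.800%, CTCTCT in 3 (7.14%) against 4.56% and TTTTT in 27 (64.3%) against 65.9%. All of these shares of candidates lay inside the Wilson intervals of the 42 regions.

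The reproducible divergent regions were spread over the autosomes. Chromosome I had 6 of 133 divergent regions reproducible (4.51%), II 9 of 114 (7.89%), III 10 of 125 (8%), IV 9 of 130 (6.92%) and V 8 of 188 (4.26%), with overlapping intervals. In each, the divergent share was above the unidirectional one, which ranged from 0.550% on I to 1.83% on III. In the middle part of the chromosomes, from 25 to 75% of their length, the divergent share was 5.41% (25 of 462) and outside it 7.46% (17 of 228), again with overlapping intervals.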

How the data were processed

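The authors deposited peak lists on assembly ce11, per the deposited records: 30000 candidates for each of 2 replicates, 30000 from pooled reads, and a list thresholded by the irreproducible discovery rate. Candidate lists were made against a control alignment, per the same records. Aligner, caller and threshold: not given in the sources used here. Read depth is unknown. The deposited signal value is a score per region and ranks regions within a list only. The deposited −log10 q-value is the caller's own. The deposited summit offset is in bp, an other unit, and lies at the midpoint of nearly all regions. Gene starts and types came from Ensembl release 115 of WBcel235, the same sequence as ce11, and products and genome sequence from RefSeq; 1142 of 1242 nearest genes (91.9%) had the same start in RefSeq.

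Summits were assigned to classes in Python 3.11.15 with pandas 2.3.3. The step was tested on simulated data, with 600 of 600 regions assigned correctly. Every thresholded peak equalled a pooled region. Replicate regions were matched by at least 1 bp of overlap, taking the nearest summit. Shares carry 95% Wilson intervals (SciPy 1.17.1). No significance test was made, because there is a single group. Genes were named from the reproducible regions (the 25 highest with ranks, then those of fixed lists) and from 5 regions on either side of the threshold; a few others are marked as chosen after seeing values. The members, 23 gene lists and motifs were chosen with earlier results of these data known. Alternatives were other windows, distances, starts, thresholds, overlaps and single replicates.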

Additional observations from a re-analysis of the deposited data

How the results depend on the processing

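Of 94 alternative values, 79 stayed within the interval of the reported value (for GC content, within 1 SD). The 15 that moved were all reproducible shares, of divergent regions, unidirectional regions or gene pairs. Some alternatives could not move a value, so the count of 79 overstates stability. Dropping the F44E5.4/F44E5.5 region, for example, leaves the unidirectional share at 1.04%. Taking the 5000 highest candidates keeps the same 42 reproducible regions. The divergent share was above the unidirectional share in each of 15 alternatives, 3.96 to 7.16 times as high against 5.83 as reported. The highest ratio set divergent summits upstream of both starts (38 of 508, 7.48%) against all unidirectional regions (1.04%). Unidirectional summits upstream of their start, the like set, had a share of 1.20% (49 of 4084). With start windows from 500 bp upstream to 200 bp downstream, the reproducible share was 10.4% of divergent regions, 1.64% of unidirectional regions and 11.0% of gene pairs (reported 6.09, 1.04 and 6.74%). With windows from 2000 to 500 bp it was 2.74, 0.561 and 3.39%. Counting only the upper 50% of the reproducible list gave 3.04, 0.563 and 3.37%, and only the 5000 highest candidates 23.1, 5.82 and 23.7%. With the nearer start within 300 bp, chosen after seeing the data, the unidirectional share was 1.41%. With the top regions of a single replicate in place of the reproducible list, the divergent share ranged from 4.20% (without replicate 2) to 6.81% and that of pairs from 4.33 to 6.74%. Without the F44E5.4/F44E5.5 region, also chosen after seeing the data, it was 5.95%. No paired analysis was possible because there is a single group. The main limits are 2 replicates, no untagged worms, unknown read depth and region widths that exceed many of the gaps between starts.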
